A study of Mus musculus with 12 samples.

Results

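Atf4 and 9 of its known target genes were examined in RNA-seq of mouse hearts, to see whether the targets followed Atf4 in each group. The 10 genes, chosen by symbol, were Atf4, Ddit3, Trib3, Asns, Chac1, Psat1, Mthfd2, Aldh1l2, Gdf15 and Phgdh, out of 55885 genes listed. The choice was made with earlier results of these data known. All 12 hearts came from male mice that entered the experiment at 8 weeks of age, labelled C57BL/6 and given as C57BL/6J in the methods. The Saline group was wild type without cisplatin, and the CDDP group was wild type and received cisplatin (CDDP), a platinum drug that crosslinks DNA, at 6 mg/kg by intraperitoneal injection on days 1, 8 and 15. The STING-/- group carried the genotype Tmem173-/- without cisplatin, and the STING-/-+CDDP group carried the same genotype and received the same 3 injections. The knockout was carried by the mice and was not limited to a heart cell type. The methods name different suppliers for the wild type and the STING-/- mice, so genotype cannot be told apart from supplier here. Hearts were collected on day 22, with 3 in each group. Hearts without cisplatin are labelled untreated, whereas the methods describe a saline group. The labels name samples without naming animals, so the p-values measure the spread between these samples.

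Expression was given as TPM, in which read numbers are set against gene length and every heart adds up to the same total. No read numbers survive in this unit, so depth is unknown. Differences were computed on log2(TPM + 1), a scale that understates the change of genes with low TPM, and tested with limma over the 13815 genes that reached a TPM of 1 in 3 or more hearts. All 10 genes passed this filter. A gene was called at an adjusted p under 0.05.

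Sting1, the gene targeted in the knockout, stood at 6.50 to 12.28 TPM in Saline hearts and 2.87 to 5.96 in STING-/- hearts, and at 5.62 to 22.11 in CDDP hearts and 3.37 to 4.67 in STING-/-+CDDP hearts. Its log2 differences between genotypes, -0.85 without and -1.18 with cisplatin, did not pass in limma (adjusted p = 1 and 0.147). All 7 cardiomyocyte markers were above 0 in every heart and summed to 22702 to 46741 TPM. Of these, Actc1 and Ryr2 were lower and Tnnt2 higher with cisplatin, without overlap in both genotypes, and the others overlapped. Actc1 stood at 5036 to 7824 TPM in Saline and 187 to 1067 in CDDP hearts. Fibroblast and fat marker sums overlapped with cisplatin in both genotypes. Of the single fibroblast markers, Col1a1 and Col1a2 were lower without overlap in both genotypes, and Lum in wild type hearts only. Of the single fat markers, Adipoq, Plin1 and Lep were lower without overlap in the knockout and overlapped in wild type hearts. The 5 atrial markers, of which Bmp10 was at 0 in 4 hearts and the other 4 in none, summed to 310 to 39132 TPM in Saline, 858 to 14625 in CDDP, 3026 to 12853 in STING-/- and 331 to 9025 in STING-/-+CDDP hearts, so that hearts of the same group differed in atrial RNA. The 6 neutrophil markers, of which Camp was at 0 in 2 hearts, Ngp in 1 and the other 4 in none, summed to 1092 TPM in CDDP heart 1 and to 3.95 to 83.5 in the other hearts. The summed macrophage markers were lower with cisplatin without overlap, at 258 to 359 TPM in Saline against 71.2 to 167 in CDDP hearts. In the knockout the sums were 253 to 379 in STING-/- against 98.0 to 210 in STING-/-+CDDP hearts. Of the single macrophage markers, Cd68 overlapped in both genotypes and Cd163 in wild type hearts. The summed lymphocyte markers, at 8.47 TPM or below in every heart, were also lower without overlap, although Cd3e and Ms4a1 overlapped in both genotypes. Erythroid markers stood at 4146 to 9317 TPM in Saline and 42.0 to 1271 in CDDP hearts. In STING-/- and STING-/-+CDDP hearts these markers stood at 264 to 1465 and 81.9 to 311. The summed endothelial markers stood at 485 to 635 in Saline and 340 to 420 in CDDP hearts, where Pecam1 alone overlapped. In the knockout the endothelial sums overlapped, at 337 to 486 TPM in STING-/- and 357 to 526 in STING-/-+CDDP hearts. The part of these cells in the differences described here was not tested. In whole tissue, fewer cells of a type cannot be told apart from less RNA per cell.

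ATF4 is a bZIP transcription factor at the centre of the integrated stress response. Kinases that sense misfolded protein, amino acid shortage, double-stranded RNA or heme shortage phosphorylate the translation factor eIF2α, general protein synthesis slows, and the Atf4 message is translated more efficiently through upstream open reading frames. ATF4 then turns on genes for amino acid supply, serine and one-carbon metabolism, and stress signalling, often as a dimer with a C/EBP protein. Since much of this control acts on translation, the Atf4 mRNA measured here is not a measure of ATF4 protein.

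Several ATF4 targets carry a C/EBP-ATF response element near the start of the gene, and its core, TGATGNAA, was searched on both strands from 250 bases before to 50 bases after the RefSeq starts (GRCm38.p6). Of the 10 genes, 9 had a promoter entry, Atf4 among them and Aldh1l2 not. Of these 9, 3 (33.3%) held the core, against 1219 of 27025 genes (4.51%) among all promoters of the same length. In the wider pathway list described below, 15 of 48 genes (31.2%) held it. Relative to the RefSeq start the core lay at -23 to -16 in Asns and at -193 to -186 in Chac1 on the opposite strand. In Trib3 it lay at 15 to 22, after the RefSeq start, also on the opposite strand. The GENCODE gene positions given below begin at other bases. By those positions the Asns match lies inside the gene and the Trib3 match before it. A match describes these letters and not a bound site. The 250 bases before the starts of Asns and Chac1, and of Gdf15 as the target with the largest change and no match in its window, are shown 5′ to 3′ with the core in capitals. The windows are chr6:7693210-7693459 on the minus strand for Asns, chr2:119350992-119351241 on the plus strand for Chac1 and chr8:70632457-70632706 on the minus strand for Gdf15.
Asns: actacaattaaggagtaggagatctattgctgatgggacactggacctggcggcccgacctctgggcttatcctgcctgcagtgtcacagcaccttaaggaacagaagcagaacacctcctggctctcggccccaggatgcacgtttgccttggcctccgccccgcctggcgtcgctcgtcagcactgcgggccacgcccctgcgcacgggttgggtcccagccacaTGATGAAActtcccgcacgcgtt
Chac1: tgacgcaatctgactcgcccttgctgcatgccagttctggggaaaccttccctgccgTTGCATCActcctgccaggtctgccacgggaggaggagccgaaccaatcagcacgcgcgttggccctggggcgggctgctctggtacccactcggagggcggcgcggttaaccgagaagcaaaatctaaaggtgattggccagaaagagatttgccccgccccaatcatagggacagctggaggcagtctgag
Gdf15: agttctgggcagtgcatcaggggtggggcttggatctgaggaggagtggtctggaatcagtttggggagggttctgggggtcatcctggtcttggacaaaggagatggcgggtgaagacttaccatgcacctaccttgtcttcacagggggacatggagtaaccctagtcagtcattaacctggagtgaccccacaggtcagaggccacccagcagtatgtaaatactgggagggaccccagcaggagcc

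Atf4 (ENSMUSG00000042406, chr15:80255184-80257541, plus strand, GRCm38) was higher with cisplatin in wild type hearts and not detectably so in STING-/- hearts. It stood at 53.15, 81.17 and 58.36 TPM in Saline hearts 1 to 3 and at 164.22, 93.54 and 155.09 in CDDP hearts. The values were 54.33, 64.20 and 49.54 in STING-/- hearts and 62.63, 71.99 and 47.35 in STING-/-+CDDP hearts. The CDDP hearts were above all 9 others, although CDDP heart 2 lay closer to Saline heart 2 than to the other CDDP hearts, and the other 3 groups overlapped. The group means were 64.2 ± 14.9 TPM in Saline, 138 ± 38.4 in CDDP, 56.0 ± 7.48 in STING-/- and 60.7 ± 12.4 in STING-/-+CDDP (SD, n = 3). Atf4 rose by 1.07 on the log2 scale in CDDP against Saline (SE 0.24, limma adjusted p = 0.0117). The adjusted p was 0.0518 without Saline heart 1 and 0.0589 when only these groups were fitted. Against CDDP, STING-/-+CDDP hearts were lower by a log2 difference of -1.15 (SE 0.24, limma adjusted p = 0.0462), a call close to the threshold that held when Saline heart 2 or CDDP heart 2 was left out and was lost on leaving out any of the other 10 hearts (adjusted p between 0.0164 and 0.170). Within the knockout the log2 difference with cisplatin was 0.10 (95% interval -0.43 to 0.63, limma adjusted p = 0.893). The difference between the responses of the 2 genotypes, the interaction, was -0.97 (95% interval -1.71 to -0.22) with an unadjusted p of 0.0152, and it did not pass in limma after adjustment over all genes (adjusted p = 0.366). Atf4 is also among the genes that the study selected from these hearts, so its direction is not independent of that choice.

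**Figure D1:**
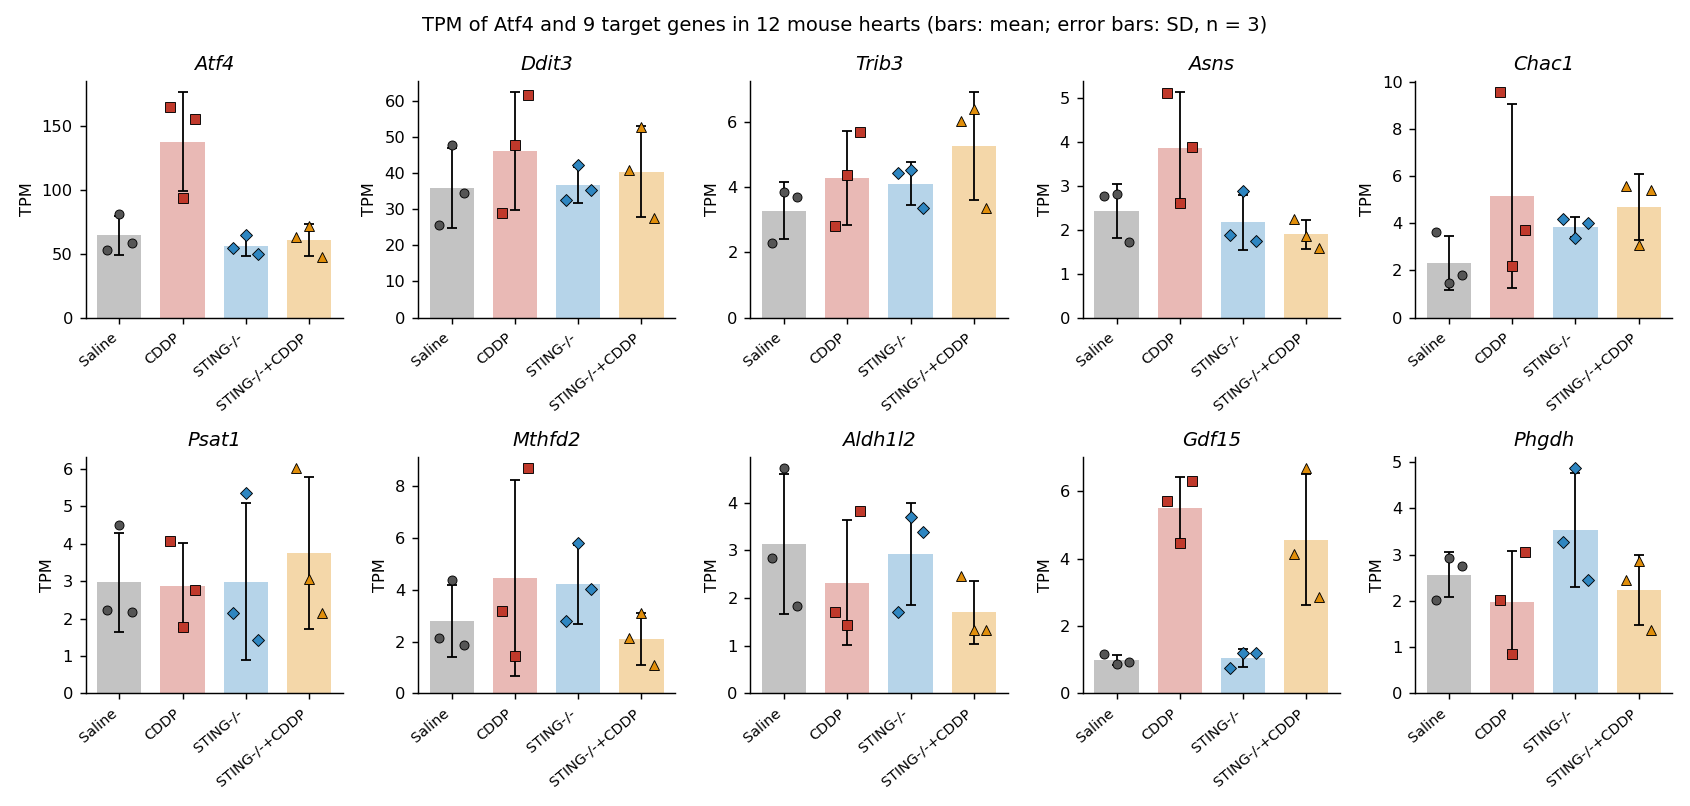
TPM of Atf4 and its 9 targets in each of the 12 hearts (points) by group, with bars for the mean and error bars for the SD of 3 hearts, each gene on its own axis from 0. Atf4 stands at 93.54 TPM or above in the 3 CDDP hearts and at 81.17 or below elsewhere, while Gdf15 is at 2.85 or above in all 6 hearts given cisplatin and at 1.20 or below in the 6 without it.

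Gdf15 (ENSMUSG00000038508, chr8:70629393-70632456, minus strand), a secreted stress cytokine that ATF4 and CHOP can induce and that is also a known p53 target, was the target with the largest change. Its TPM was 1.17, 0.86 and 0.94 in Saline hearts and 5.71, 4.46 and 6.30 in CDDP hearts. It was 0.74, 1.19 and 1.20 in STING-/- hearts and 4.15, 6.69 and 2.85 in STING-/-+CDDP hearts. The hearts given cisplatin were above all hearts without it in both genotypes, and the CDDP and STING-/-+CDDP hearts overlapped. The ratio of mean TPM was 5.55 in wild type and 4.37 in STING-/- hearts. On the log2 scale Gdf15 rose by 1.70 in CDDP against Saline (SE 0.24, limma adjusted p = 0.00137) and by 1.39 in STING-/-+CDDP against STING-/- (SE 0.24, limma adjusted p = 0.0240). The call in the knockout held without STING-/-+CDDP heart 3, whereas the adjusted p rose to between 0.0659 and 0.114 without STING-/- heart 1, 2 or 3 or STING-/-+CDDP heart 1 or 2. Between the cisplatin groups the log2 difference was -0.27 (95% interval -0.79 to 0.25, limma adjusted p = 0.569), and the interaction was -0.30 (95% interval -1.04 to 0.44, limma adjusted p = 0.759). Gdf15 and Atf4 thus both passed in wild type hearts, and in STING-/- hearts Gdf15 passed where Atf4 did not.

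Asns (ENSMUSG00000029752, chr6:7675169-7693254, minus strand), the asparagine synthetase that carries the core element shown above, was the target whose levels over the 12 hearts were most like those of Atf4. Its TPM was 2.76, 2.81 and 1.72 in Saline hearts and 5.12, 2.60 and 3.88 in CDDP hearts. It was 1.88, 2.88 and 1.74 in STING-/- hearts and 2.24, 1.86 and 1.58 in STING-/-+CDDP hearts. CDDP heart 2, the CDDP heart with the least Atf4, was also the one with the least Asns and lay within the Saline range, and all 3 CDDP hearts were above all 3 STING-/-+CDDP hearts. None of its differences passed in limma, with a log2 difference of 0.49 in CDDP against Saline (SE 0.23, adjusted p = 0.166), -0.72 in STING-/-+CDDP against CDDP (SE 0.23, adjusted p = 0.132) and -0.61 for the interaction (adjusted p = 0.493). The difference of STING-/-+CDDP from STING-/- was -0.12 (95% interval -0.63 to 0.39).

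The 3 stress-signalling targets did not pass in any comparison, and their CDDP and Saline hearts overlapped. Ddit3 (ENSMUSG00000025408, chr10:127290774-127296288, plus strand) encodes CHOP, a bZIP factor linked to cell death under prolonged stress. It stood at 25.75, 47.73 and 34.39 TPM in Saline and at 29.01, 47.66 and 61.42 in CDDP hearts, a log2 difference of 0.33 (SE 0.31, limma adjusted p = 0.489), and in STING-/-+CDDP hearts it lay between 27.62 and 52.71. CDDP heart 1, which had the most Atf4, had the least Ddit3 of its group. Ddit3 overlaps Mars on the opposite strand, and whether reads were counted by strand is not stated, so reads from the pair may be mixed. A second, shorter Ddit3 model was listed at 0 in every heart and was left out.

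Trib3 (ENSMUSG00000032715, chr2:152337422-152344032, minus strand), a pseudokinase that restrains ATF4 signalling and AKT, stood at 2.28, 3.84 and 3.70 TPM in Saline and at 2.81, 4.35 and 5.68 in CDDP hearts, a log2 difference of 0.29 (SE 0.27, limma adjusted p = 0.481). Its highest group mean was that of STING-/-+CDDP, at 5.25 ± 1.64 TPM (SD, n = 3), where Atf4 stood near its level in STING-/- hearts. The log2 difference of Trib3 from STING-/- was 0.26, within the spread of the hearts. Chac1 (ENSMUSG00000027313, chr2:119351229-119354381, plus strand) encodes an enzyme that degrades glutathione and responds to ATF4 and CHOP. Its TPM was 3.64, 1.49 and 1.81 in Saline and 9.55, 2.18 and 3.71 in CDDP hearts, a log2 difference of 0.76 (SE 0.39, limma adjusted p = 0.193). The highest Chac1 value of the 12 was in CDDP heart 1, which was also the heart with the most Atf4 and with the raised neutrophil markers, and the part of those cells in it was not tested.

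The 4 enzymes of serine synthesis and mitochondrial one-carbon metabolism were not called in any comparison, and their CDDP and Saline hearts overlapped. Phgdh (ENSMUSG00000053398, chr3:98313170-98339990, minus strand) and Psat1 (ENSMUSG00000024640, chr19:15904678-15947337, minus strand) catalyse the first steps from glycolysis to serine. Mthfd2 (ENSMUSG00000005667, chr6:83305691-83325908, minus strand) and Aldh1l2 (ENSMUSG00000020256, chr10:83487450-83534140, minus strand) act on folate-bound one-carbon units in mitochondria. The TPM of Mthfd2 was 2.15, 4.39 and 1.85 in Saline, 3.19, 1.44 and 8.71 in CDDP, 2.78, 5.82 and 4.04 in STING-/- and 2.14, 3.09 and 1.09 in STING-/-+CDDP hearts. CDDP heart 3 alone set the high CDDP mean of 4.45 ± 3.79 TPM (SD, n = 3), and without it the log2 difference from Saline, 0.35 with all hearts (SE 0.46, limma adjusted p = 0.640), turned to -0.19. Phgdh stood at 2.01, 2.93 and 2.76 TPM in Saline and at 2.01, 0.86 and 3.06 in CDDP hearts, and Psat1 at 2.23, 4.50 and 2.17 in Saline and at 4.07, 1.77 and 2.77 in CDDP hearts. Aldh1l2 stood at 2.84, 4.73 and 1.84 TPM in Saline and at 1.71, 1.44 and 3.83 in CDDP hearts. In CDDP against Saline the log2 differences were -0.32 for Phgdh, -0.32 for Aldh1l2 and -0.030 for Psat1, with adjusted p of 0.493, 0.545 and 0.970 in limma. Psat1 and Aldh1l2 overlap Gm3329 and D10Wsu102e, respectively, on the opposite strand, and Mthfd2 overlaps Gm43890 on the same strand.

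**Figure D2:**
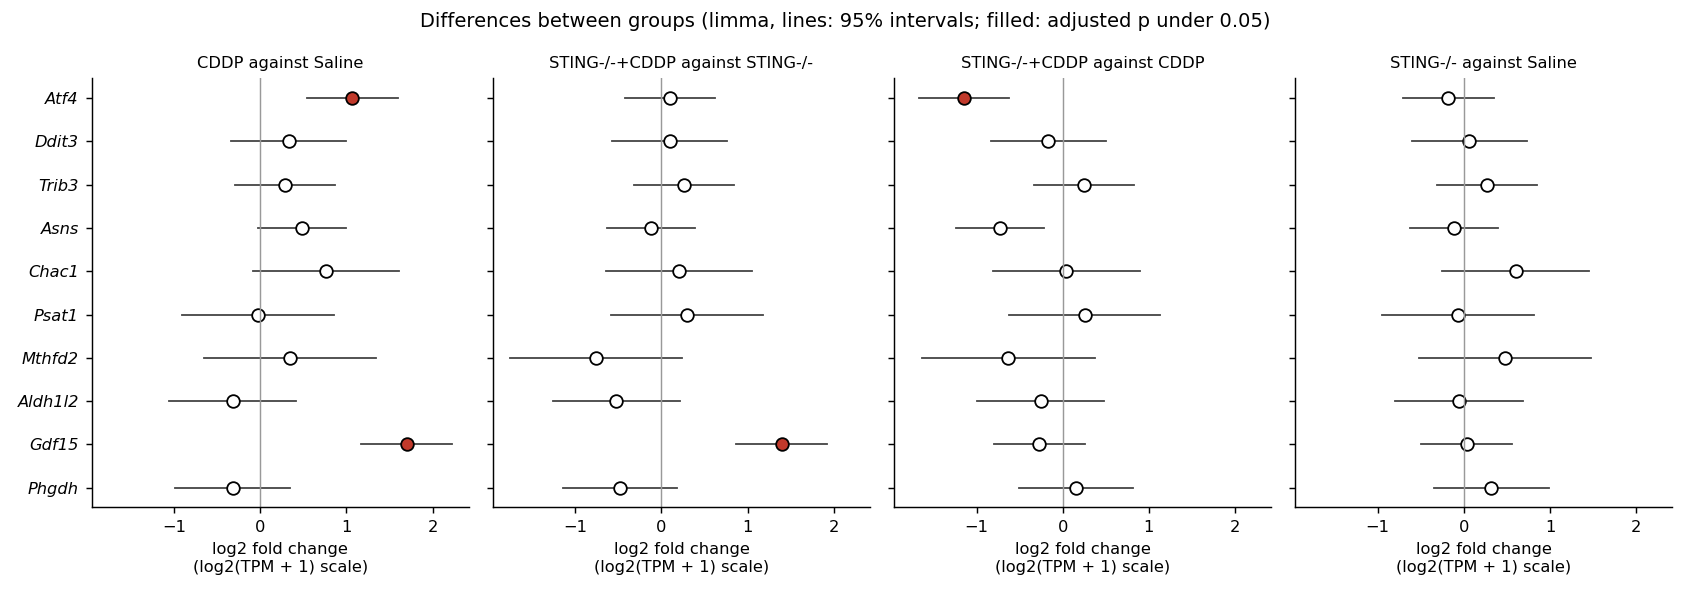
Log2 differences of the 10 genes in each of the 4 group comparisons, on the log2(TPM + 1) scale, with lines for the 95% intervals and filled points for an adjusted p under 0.05 in limma. In CDDP against Saline, Atf4 at 1.07 and Gdf15 at 1.70 are filled, in STING-/-+CDDP against STING-/- Gdf15 at 1.39, in STING-/-+CDDP against CDDP Atf4 at -1.15, and in STING-/- against Saline no gene.

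Of the 10 genes, 2 were called in CDDP against Saline, both higher, where 18.9% of all tested genes were called and 8.52% were called higher. The same 2 were the ones whose hearts did not overlap with CDDP higher, against 14.9% of all genes. The median log2 difference was 0.34 over the 10 genes and -0.0032 over all. In STING-/-+CDDP against CDDP, 1 gene (Atf4) was called, lower, against 1.22% of all genes called and 0.854% called lower. Atf4 and Asns were lower in every STING-/-+CDDP heart than in every CDDP heart, as were 15.6% of all genes, and the medians were -0.21 and -0.095. For STING-/-+CDDP against STING-/- there was 1 called gene (Gdf15), higher, against 0.934% of all genes called and 0.253% called higher. Gdf15 was also the 1 gene without overlap there, against 7.28% of all genes with every cisplatin heart higher, and the medians were 0.10 and -0.11. Scaling by the median of ratios moved the median of all genes there to 0.0080, with 128 of 251 called genes higher in place of 35 of 129, and Gdf15 rose by 1.49 (limma adjusted p = 0.0100). The same scaling gave 275 of 651 higher in place of 50 of 168 in STING-/-+CDDP against CDDP, where Atf4 fell by 1.03 (limma adjusted p = 0.0283), and 1911 of 3810 higher in place of 1177 of 2610 in CDDP against Saline. In STING-/- against Saline 0 genes were called by limma, against 0.0724% of all genes, and 0 had an unadjusted p under 0.05, against 3.69% of all genes. In that comparison 0 of the 10 had groups without overlap, against 7.64% of all, and the log2 differences of Atf4, Chac1 and Gdf15 were -0.18, 0.60 and 0.033. For the interaction 0 were called by limma, against 0.00724% of all genes, and 1 of 10 (Atf4) had an unadjusted p under 0.05, against 11.7% of all genes. These comparisons share the CDDP or the control hearts with each other, so their counts are not independent.

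Whether the targets followed Atf4 from heart to heart inside a group was described with a model that removed the group means and fitted a slope on Atf4, as log2 units of a target per log2 unit of Atf4, with 7 residual degrees of freedom. All 9 slopes were positive, as were 74.5% of those of all genes, and their median was 0.64 against 0.25 over all genes. None of the 9 was called by limma, against 0.847% of all genes, and 4 of 9 had a positive slope with an unadjusted p under 0.05, against 18.2% of all genes. These 4 were Mthfd2 with 1.59 (SE 0.40, unadjusted p = 0.00241, limma adjusted p = 0.0919), Psat1 with 1.27 (SE 0.40, limma adjusted p = 0.140), Phgdh with 1.08 (SE 0.25, limma adjusted p = 0.0768) and Asns with 0.64 (SE 0.25, limma adjusted p = 0.193). Mthfd2, Psat1 and Phgdh act in serine or one-carbon metabolism and were not called in CDDP against Saline. The slopes of Aldh1l2, Ddit3, Gdf15, Trib3 and Chac1 were 0.70, 0.55, 0.49, 0.44 and 0.22. Gdf15, the target with the largest change with cisplatin, had the seventh slope of 9.

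**Figure D3:**
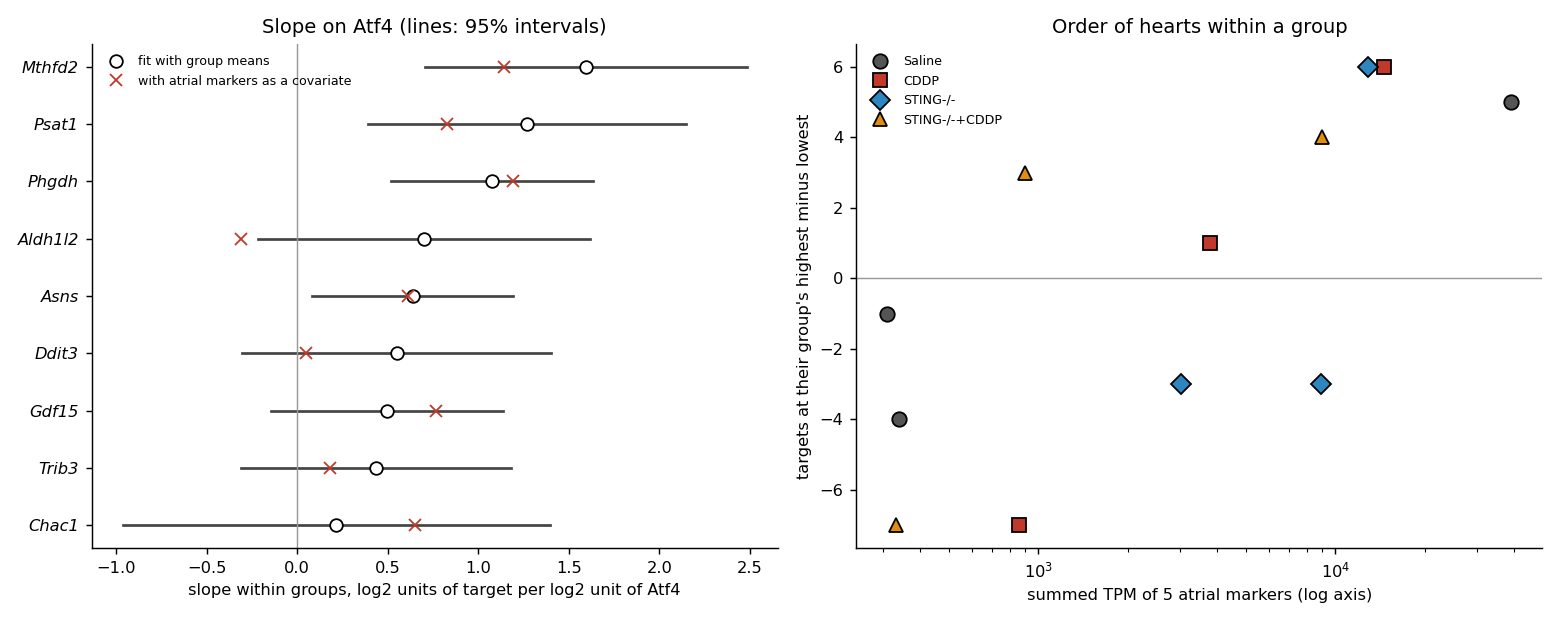
Left, slope of each target on Atf4 within groups, in log2 units of the target per log2 unit of Atf4, with the 95% interval (lines) and the slope with the atrial markers as a covariate (crosses). Right, for each heart the number of targets highest in it minus the number lowest in it within its group, against its summed TPM of 5 atrial markers on a log axis. Mthfd2 has the largest slope at 1.59, the covariate moves Aldh1l2 from 0.70 to -0.31, and the Saline, CDDP and STING-/- hearts with the largest atrial sums (39132, 14625 and 12853 TPM) hold the most targets at their highest, which in STING-/-+CDDP is heart 2 (902 TPM) with 5, against 4 for heart 1 (9025 TPM).

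The slopes rested on few hearts. In Saline the heart with the most Atf4 (heart 2) was also the highest for 7 of 9 targets, in STING-/- (heart 2) for 7 of 9, in STING-/-+CDDP (heart 2) for 5 of 9 and in CDDP (heart 1) for 3 of 9. In the CDDP group heart 3 was the highest for 6 of 9 targets and heart 2, with the least Atf4, was the lowest for 7. Saline heart 2, CDDP heart 3 and STING-/- heart 2 also had the highest atrial marker sum of their groups (39132, 14625 and 12853 TPM) and the highest median expression over all tested genes (3.37, 3.37 and 3.31 on the log2 scale). In STING-/-+CDDP, heart 1 had both the highest atrial sum (9025 TPM) and the highest median (3.16) and was the highest for 4 of 9 targets, against 5 for heart 2 with an atrial sum of 902 TPM. The part of either in the slopes was not separated from that of Atf4. With the atrial markers as a covariate, a fit added after seeing the data, 8 of 9 slopes were positive and that of Aldh1l2 was -0.31. In that fit the median slope of all genes moved from 0.25 to 0.017, and 0 genes in all were called in place of 117. After scaling by the median of ratios, which moved the median slope of all genes to -0.0041, 8 of 9 were positive and that of Ddit3 was -0.07. With this scaling 2 genes in all were called. Without CDDP heart 1, the adjusted p of Ddit3, Trib3, Mthfd2 and Phgdh in limma was 0.0169, 0.0494, 0.00847 and 0.0163, and 2295 genes in all were called in place of 117. Without CDDP heart 2 or STING-/-+CDDP heart 3, 0 genes were called.

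**Figure D4:**
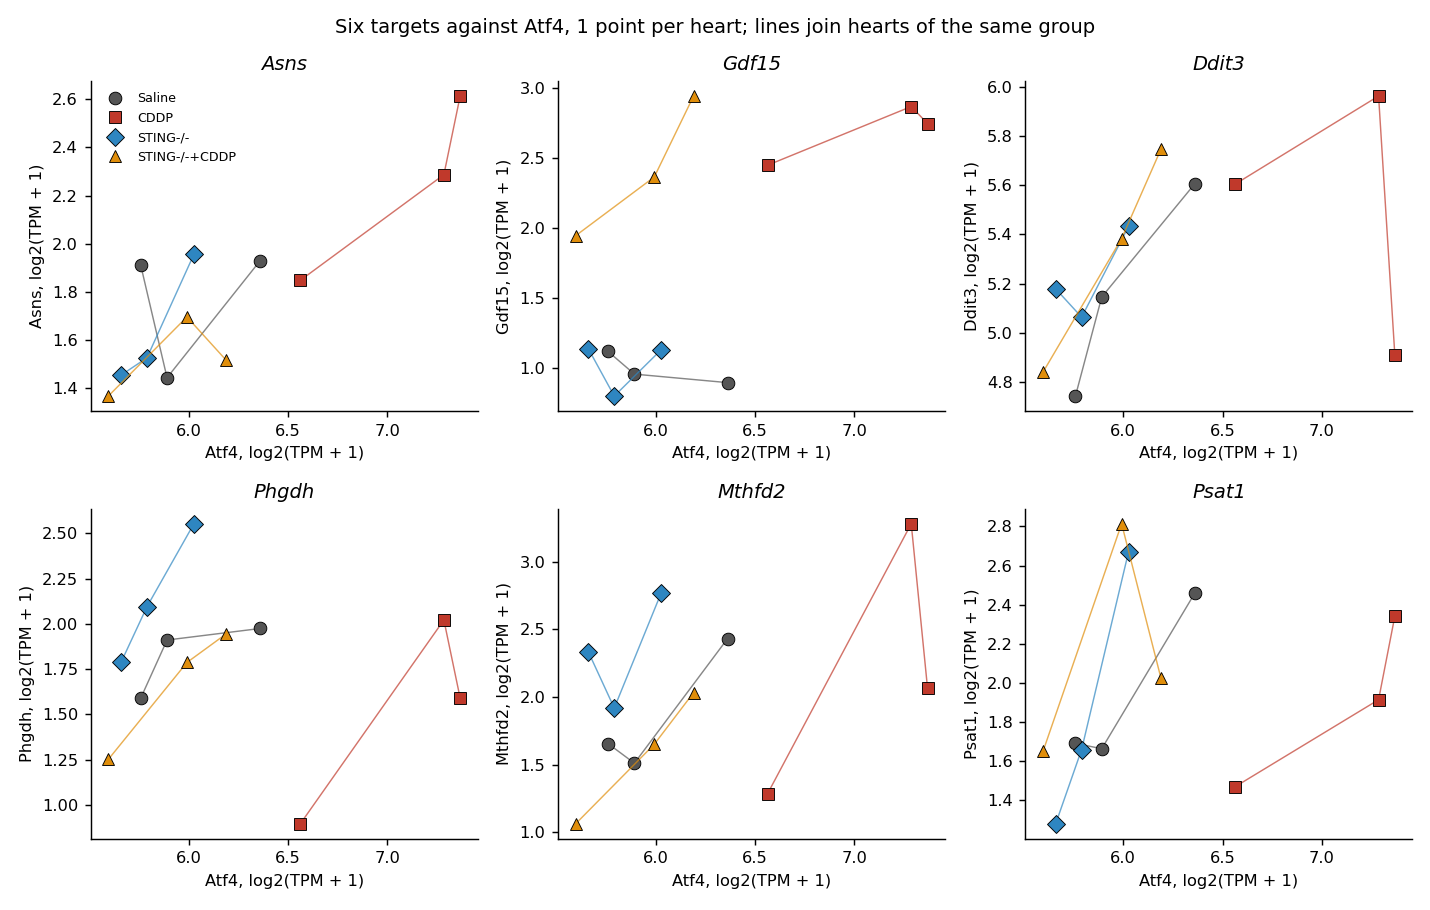
Asns, Gdf15, Ddit3, Phgdh, Mthfd2 and Psat1 against Atf4, both as log2(TPM + 1), with 1 point per heart and lines that join the hearts of a group. The CDDP hearts lie to the right of all others, and Gdf15 is high in STING-/-+CDDP hearts although their Atf4 does not exceed 71.99 TPM.

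Over the 12 hearts, the 5 genes with levels most like those of Atf4 were Brd2, Ptpn12, Gna13, Rplp1 and Ppp1r2, with Pearson r of 0.98, 0.97, 0.97, 0.97 and 0.96. Of its targets, Asns came nearest with r = 0.87, and 3.25% of the 13814 other tested genes had a higher r. Gdf15 followed with 0.64, Mthfd2 with 0.47 and Ddit3 with 0.44. The r of Psat1, Chac1, Trib3, Aldh1l2 and Phgdh lay between 0.27 and -0.06. These correlations include the group differences and the scaling that hearts share, and are given as a description.

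A wider list of 61 genes of the pathway, 58 of them tested, was read beside the 10. The list was chosen with earlier results of these data known, so its shares are not independent of them. In CDDP against Saline 11 of the 58 were called, 10 higher (17.2%, against 8.52% of all genes) and 1 lower (against 10.4% of all genes), and the median log2 difference was 0.29. Fgf21, Slc7a11 and Slc7a3 were too low to be tested. The rises lay in the eIF2 machinery and its phosphatase (5 of 10 genes), the stress outputs (2 of 8), the tRNA synthetases (2 of 12) and the amino acid transporters (1 of 7). No serine, proline or one-carbon enzyme (0 of 9) and no bZIP partner (0 of 6) was called.

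Ppp1r15a encodes GADD34, which brings a phosphatase to eIF2α and is itself an ATF4 target, and it was called in the same comparisons as Atf4. Its TPM was 20.91, 22.27 and 16.70 in Saline, 46.38, 50.02 and 56.33 in CDDP, 15.83, 20.99 and 14.06 in STING-/- and 24.94, 29.97 and 19.78 in STING-/-+CDDP hearts. The lowest CDDP value exceeded the highest of the other 9 hearts. Ppp1r15a rose by 1.31 on the log2 scale in CDDP against Saline (SE 0.19, limma adjusted p = 0.00159) and was lower in STING-/-+CDDP than in CDDP by a log2 difference of -1.02 (SE 0.19, limma adjusted p = 0.0341), the 1 call of the 58 in that comparison (1.72%, against 1.22% of all genes called and 0.854% called lower). The second call was lost without CDDP heart 1 or 3 or any of the STING-/-+CDDP hearts, when 0 of the list were called. Its constitutive counterpart Ppp1r15b had a log2 difference of 0.30 in CDDP against Saline (limma adjusted p = 0.246).

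Slc3a2, the shared heavy chain of several amino acid exchangers, rose by 1.71 on the log2 scale in CDDP against Saline (limma adjusted p = 0.00278), from 24.17, 43.41 and 25.63 TPM to 97.48, 79.04 and 132.12. In STING-/-+CDDP hearts it stood at 75.62, 63.74 and 43.12 TPM, below all CDDP hearts but overlapping with the STING-/- hearts at 33.03, 50.51 and 35.17. Sesn2, an inhibitor of mTORC1 induced by ATF4 and p53, rose by 1.25 (limma adjusted p = 0.00658), from 1.80, 2.40 and 1.60 TPM to 7.36, 4.32 and 6.44. Sesn2 in STING-/-+CDDP hearts was at 6.40, 7.31 and 3.62 TPM, above all STING-/- hearts (1.61, 2.23 and 2.30), with a log2 difference of 1.12 that missed the threshold in limma (adjusted p = 0.0640). Sesn2 therefore resembled Gdf15 more than Atf4 in where it was high, a likeness noticed after its values were seen.

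The translation machinery made up most of the other calls in CDDP against Saline. Subunits of eIF2B, the exchange factor that phosphorylated eIF2 blocks, rose by 0.86 (Eif2b5), 0.74 (Eif2b3) and 0.52 (Eif2b1) on the log2 scale, with adjusted p of 0.00216, 0.0106 and 0.0302 in limma. The eIF2β gene Eif2s2 rose by 0.52 (limma adjusted p = 0.0184), and the translation repressor gene Eif4ebp1 by 0.61 (limma adjusted p = 0.0226). Of the tRNA synthetases, Eprs rose by 0.80 and Sars by 0.49, with adjusted p of 0.00687 and 0.0391 in limma. Oma1, the mitochondrial protease that relays stress to eIF2α, fell by 0.73 (limma adjusted p = 0.00947). Without Saline heart 1 the list held 7 calls in this comparison. Over all genes, leaving out single hearts gave 1241 to 2559 calls there, against 2610 with all hearts.

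The 4 eIF2α kinases had no called rise in any comparison. In CDDP against Saline the log2 differences were 0.17 for Eif2ak1 (HRI), -0.69 for Eif2ak2 (PKR), -0.10 for Eif2ak3 (PERK) and 0.14 for Eif2ak4 (GCN2), with an adjusted p of 0.0534 in limma for Eif2ak2. Eif2ak2, the kinase that binds double-stranded RNA and is itself an interferon-induced gene, stood at 6.97, 4.81 and 3.50 TPM in Saline, 2.84, 2.52 and 2.65 in CDDP, 7.90, 5.44 and 6.38 in STING-/- and 2.59, 2.05 and 1.42 in STING-/-+CDDP hearts. All 6 hearts given cisplatin were below all 6 without it. In STING-/-+CDDP against STING-/- it fell by 1.33 on the log2 scale (limma adjusted p = 0.0240), the 1 call of the list there (against 0.68% of all genes called lower), and no gene of the list was called when any of those 6 hearts was left out. In STING-/- against Saline 0 of the list were called by limma, with 1 of 58 at an unadjusted p under 0.05 (against 3.69% of all genes), and for the interaction 0 were called, with 9 of 58 at an unadjusted p under 0.05, against 11.7% of all genes.

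**Figure D5:**
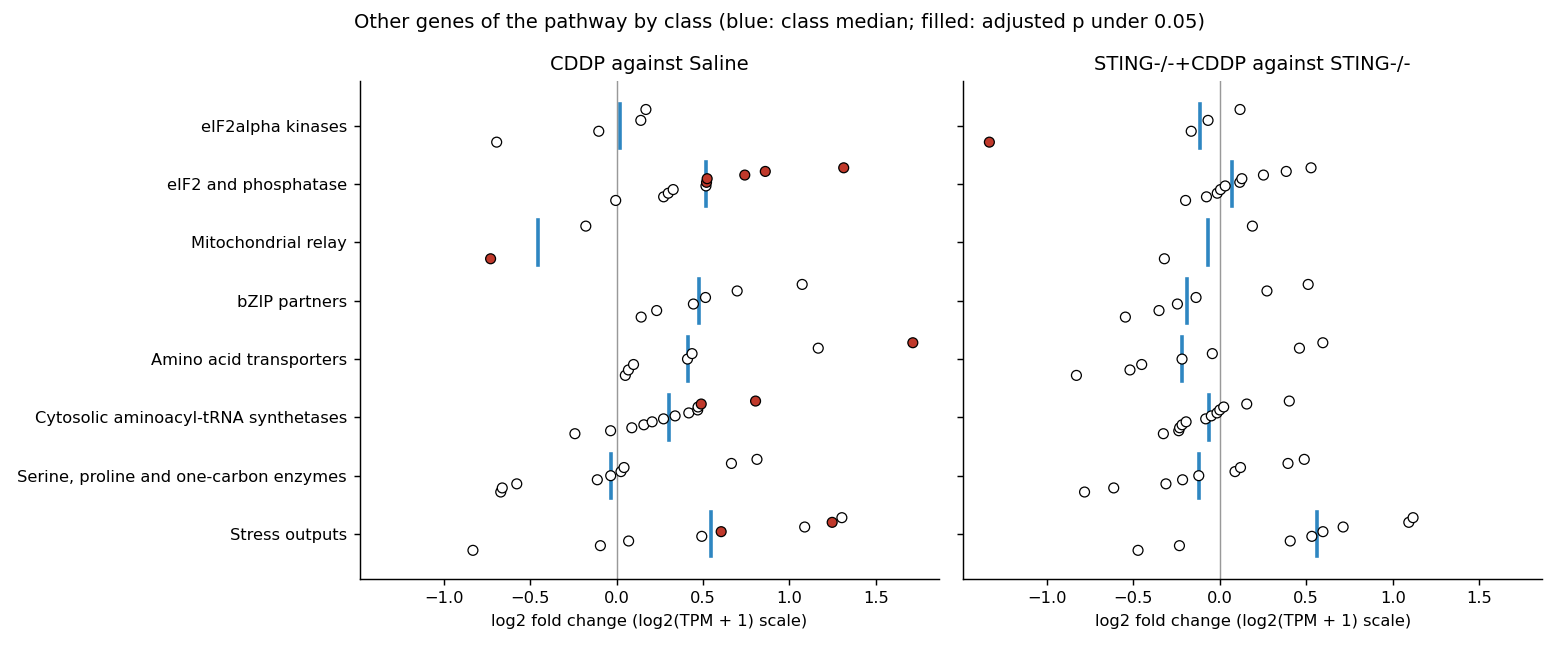
Log2 differences of the 58 tested genes of the wider list, 1 point per gene, in CDDP against Saline (left) and STING-/-+CDDP against STING-/- (right) by class, with blue lines for class medians and filled points for an adjusted p under 0.05 in limma. On the left the class medians are 0.52 for the eIF2 machinery and phosphatase, 0.48 for the bZIP partners and -0.033 for the serine, proline and one-carbon enzymes, and on the right the 1 filled point is Eif2ak2 at -1.33.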

How the data were processed

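RNA-seq was made from total RNA of 12 hearts. The submitters' processing notes name fastp, HISAT, RSEM and GRCm38.p5, without their roles, settings or strandedness. TPM values, 1 per gene for each heart, were deposited by the authors, and raw counts were not used here, so the depth is unknown and no counting intervals were given. The deposited group means were not used. No scaling was added. Values were log-transformed after adding 1, and a gene was kept where 3 or more hearts reached a TPM of 1.

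Group means were modelled over all 12 hearts in R 4.3.3 using limma 3.58.1 (eBayes with trend, 8 residual degrees of freedom). Tests were two-sided, and p-values were adjusted by Benjamini-Hochberg across 13815 genes. The procedure was tested on simulated data in which genes were drawn independently. Shifts shared by most genes of a heart were not part of that simulation, so it does not cover them. Positions came from GENCODE M21, which held 55141 of the 55885 identifiers. Figures were drawn with matplotlib 3.10.9.

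The members and the lists were chosen with earlier results of these data known. Named genes were the 10 members, the genes of the pathway list called in any comparison, the 4 eIF2α kinases, Ppp1r15a and Ppp1r15b, the 5 genes most like Atf4 and Sting1. As alternatives, the pseudocount was set to 0.1, the filter was removed or set to 5, only the groups compared were fitted, values were scaled by quantile normalization, by median of ratios or after removing mitochondrially encoded genes, and eBayes without trend, arrayWeights, a replicate block and leaving out single hearts were tried. The atrial markers as a covariate were added after seeing the data.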

Additional observations from a re-analysis of the deposited data

Results flagged for a closer look

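The members and the wider list were searched for cisplatin hearts without overlap in opposite directions in the 2 genotypes. The share of all genes with this pattern was not counted. Eif2s2, which encodes the β subunit of eIF2, was the gene found. Its TPM was 24.36, 26.32 and 23.52 in Saline, 38.61, 30.48 and 39.52 in CDDP, 27.44, 25.81 and 27.96 in STING-/- and 24.93, 23.40 and 22.13 in STING-/-+CDDP hearts. All CDDP hearts were above all Saline hearts, and all STING-/-+CDDP hearts were below all STING-/- hearts. The log2 difference with cisplatin was 0.52 in wild type hearts (limma adjusted p = 0.0184) and -0.20 in STING-/- hearts (limma adjusted p = 0.555). The interaction was -0.72 (SE 0.19, unadjusted p = 0.00229) and did not pass in limma after adjustment over all genes (adjusted p = 0.308).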

How the results depend on the processing

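Among the 10 genes, 2 called in CDDP against Saline became 1 with only the groups compared. The 1 called in STING-/-+CDDP against CDDP (Atf4) became 0 with a pseudocount of 0.1, no filter, only the groups compared, eBayes without trend, arrayWeights and the replicate block. The 1 called in STING-/-+CDDP against STING-/- (Gdf15) became 0 with no filter, a TPM filter of 5 and only the groups compared. Over the 11 alternatives the adjusted p in limma of Atf4 in CDDP against Saline lay between 0.00397 and 0.0589, that of Atf4 in STING-/-+CDDP against CDDP between 0.0283 and 0.138, and that of Gdf15 in STING-/-+CDDP against STING-/- between 0.00309 and 0.0763. Leaving out single hearts gave 1 to 2, 0 to 1 and 0 to 1 of the 10 called, and 0 to 4 slopes on Atf4. With arrayWeights 4 target slopes were called. Over all genes, called slopes ranged from 0 to 1813 over the alternatives and from 0 to 2295 with single hearts left out, against 117. The causes were not tested. The filter of 5 removed Asns, Psat1, Mthfd2, Aldh1l2 and Phgdh. The interaction and the slopes cannot be fitted with only the groups compared.

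Of the wider list, 11 called in CDDP against Saline became 5 with only the groups compared, 20 with median of ratios and 19 with quantile normalization, and 7 to 14 with single hearts left out. The 1 in STING-/-+CDDP against CDDP became 0 with no filter or only the groups compared, 2 without mitochondrially encoded genes, with quantile normalization or with the atrial covariate, and 3 with the filter of 5 or median of ratios (0 to 3 with single hearts left out). The 1 in STING-/-+CDDP against STING-/- became 0 with no filter, 2 with only the groups compared or without mitochondrially encoded genes, 3 with median of ratios or the atrial covariate, and 4 with quantile normalization or arrayWeights (0 to 1 with single hearts left out). Calls over all genes changed as well. In CDDP against Saline they ranged from 822 to 3904 over the alternatives and from 1241 to 2559 with single hearts left out, against 2610. In STING-/-+CDDP against CDDP the ranges were 12 to 671 and 11 to 380, against 168. In STING-/-+CDDP against STING-/- they were 46 to 613 and 18 to 204, against 129.

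Some values changed sign. The slope on Atf4 was -0.069 for Ddit3 with median of ratios, -0.51 for Chac1 with arrayWeights (-0.88 to 0.57 with single hearts left out) and -0.31 for Aldh1l2 with the atrial covariate. Psat1 in CDDP against Saline was 0.042 with quantile normalization. Gdf15 in STING-/- against Saline was -0.026 with quantile normalization, -0.048 with arrayWeights and -0.011 with the atrial covariate. Asns in STING-/-+CDDP against STING-/- was 0.042 with quantile normalization and 0.019 with the atrial covariate, and the Gdf15 interaction was 0.032 with arrayWeights. With single hearts left out, the log2 differences that changed sign ranged in CDDP against Saline from -0.19 to 0.81 for Mthfd2 and from -0.25 to 0.23 for Psat1. In STING-/-+CDDP against CDDP they ranged from -0.46 to 0.073 for Ddit3, -0.34 to 0.53 for Chac1, -0.071 to 0.51 for Psat1, -0.45 to 0.047 for Aldh1l2 and -0.14 to 0.42 for Phgdh. They ranged in STING-/- against Saline from -0.30 to 0.00023 for Atf4 and -0.025 to 0.14 for Gdf15, and in STING-/-+CDDP against STING-/- from -0.032 to 0.27 for Atf4 and -0.21 to 0.036 for Asns.

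Same-numbered hearts did not deviate together, as 4 of 18 pairs correlated over 0.1 and 1 of 12 hearts correlated best with its own number, so the numbers were not read as pairs. With the replicate block, 2175, 67, 5, 114 and 1 genes were called in the 4 comparisons and the interaction, against 2610, 168, 10, 129 and 1 without it, and 11 in place of 117 followed Atf4.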
